A study of Mus musculus with 4 samples.

Results

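Transcripts of the C/EBP family, of Gfi1 and of Ddit3 were followed in mouse LSK cells, marrow cells sorted as lacking lineage markers and carrying Sca-1 and Kit, among which are stem cells and early progenitors of blood. The members were taken by name from an Illumina bead array table. They were the rows named CEBPA, CEBPB, CEBPD, CEBPE, CEBPG, CEBPZ, GFI1 and DDIT3, 8 of 30854 gene rows, written below as mouse symbols. Total RNA from 4 samples was hybridised to 1 array each, 2 from mice labelled control and 2 from mice labelled B-myb floxed-MxCre, called knockout here. In the latter, recombination sites flank part of B-myb (current symbol Mybl2, a regulator of cell cycle genes), and the interferon-responsive Mx promoter drives the Cre recombinase. All mice were C57BL6/J, 12 to 16 weeks old, and had received pIpC, which raises interferon and so turns on the Mx promoter, 1 week before harvest. Each sample was a pool of 3 to 5 mice. Whether the control mice carried Cre or floxed alleles is not given in the labels. The Mx promoter answers interferon in many tissues, so deletion is not limited to the sorted cells. The comparison sets these granulocytic regulators in LSK cells of the knockout genotype against those of controls.

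C/EBP proteins are basic leucine zipper factors that bind DNA as dimers. In the marrow C/EBP alpha starts granulocyte commitment from multipotent progenitors, C/EBP epsilon carries the later steps in which secondary granules are made, and C/EBP beta serves granulocyte output under infection. Gfi1 is a zinc finger repressor that acts beside them, favouring the neutrophil over the monocyte path and restraining stem cell division. Ddit3 encodes CHOP, a C/EBP relative with an altered basic region that pairs with other members and is induced by endoplasmic reticulum stress.

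RefSeq promoter sequences (GRCm38.p6) were at hand for Cebpa, Cebpb, Cebpg, Ddit3 and Gfi1, and not for Cebpd, Cebpe and Cebpz. The 250 bases before the start of transcription are shown for Gfi1 and Cebpa, both higher on the knockout arrays, and for Ddit3, which was lower. Both strands were searched for the C/EBP half-site pair TTGCNNAA, the Gfi1 core AAATCA, the Myb core AACNG, the cell cycle element TTTGAA that MuvB complexes bind, and CCAAT, the box that gave the C/EBP family its name. Capitals mark every match.
Gfi1, chr5:107725806-107726055, minus strand: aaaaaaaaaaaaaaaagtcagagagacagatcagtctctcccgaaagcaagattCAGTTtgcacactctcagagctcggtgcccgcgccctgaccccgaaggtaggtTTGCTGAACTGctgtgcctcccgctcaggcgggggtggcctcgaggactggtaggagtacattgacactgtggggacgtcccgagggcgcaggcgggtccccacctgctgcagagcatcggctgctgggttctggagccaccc
Cebpa, chr7:35119043-35119292, plus strand: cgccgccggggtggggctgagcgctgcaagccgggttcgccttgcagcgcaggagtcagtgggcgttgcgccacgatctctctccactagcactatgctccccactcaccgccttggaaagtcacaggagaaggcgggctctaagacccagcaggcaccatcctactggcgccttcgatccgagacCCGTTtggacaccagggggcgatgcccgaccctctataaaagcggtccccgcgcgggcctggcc
Ddit3, chr10:127290543-127290792, plus strand: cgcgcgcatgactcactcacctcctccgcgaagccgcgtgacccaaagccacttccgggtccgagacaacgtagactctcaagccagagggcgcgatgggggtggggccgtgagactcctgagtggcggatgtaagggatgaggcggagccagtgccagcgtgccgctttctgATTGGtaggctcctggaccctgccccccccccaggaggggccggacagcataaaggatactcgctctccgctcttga
In the Gfi1 window a C/EBP match began at position -143 from the start of transcription and shared its last bases with a Myb core at -137. A further Myb core lay at -196. RefSeq gives Gfi1 another start, whose window (chr5:107724344-107724593, not printed) held a single Myb core at -31 and no C/EBP match. The Cebpa window held a single Myb core at -64, and the Ddit3 window a single CCAAT box at -77, read on the opposite strand. The windows of Cebpb and Cebpg, not printed, were searched too. That of Cebpb, also higher on the knockout arrays, held no match to any of the searched letters. That of Cebpg held a Myb core at -132 and CCAAT boxes at -89 and -28. Among all 32851 RefSeq promoter windows of this length, 9.56% held the C/EBP letters, 12.4% the Gfi1 core, 74.2% the Myb core, 16% the cell cycle element and 33.8% a CCAAT box. These matches describe letters and do not show binding.

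Fewer genes were detected on the knockout arrays. The detection p-value was below 0.05 for 12297 and 13439 rows in controls against 10761 and 8797 in knockouts, while the median signal was 91.2 and 84.2 in controls against 97.4 and 103.8 in knockouts and the median negative control probe 86.7 and 80.7 against 94.4 and 99.9. The part of this difference in the results was not tested. Values were background-corrected and quantile-normalized before they were compared, and levels below are log2 normalized intensities unless called signals. Mybl2 itself overlapped, at 7.19 and 6.52 in controls against 6.72 and 6.62 in knockouts, and since its probes cannot be placed within the gene they do not check the deletion. Of the genes behind the gate, Ly6a (Sca-1) overlapped between the genotypes. Kit was lower in the knockouts by 0.86 on the log2 scale (limma, adjusted p = 0.237), with means of 9.88 in controls and 9.02 in knockouts. By the deposited detection p-value, Kit and Mybl2 were each detected on both control arrays and on 1 knockout array.

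Cebpe stood highest above its control level among the members. Its mean level was 3.05-fold higher in the knockouts, followed by Gfi1 (2.10-fold). Cebpb and Cebpa were higher by smaller amounts, 1.63-fold and 1.36-fold, and Ddit3 was lower (1.35-fold). Of the 8 members, 5 were detected (p-value below 0.05) on 2 or more arrays and entered the test over 11538 genes. None of these 5 passed an adjusted p of 0.05, and over all genes 0% did, in a limma fit that compared 2 arrays with 2, while 1769 genes (15.3%) stood at an unadjusted p under 0.05. At that unadjusted limit stood 2 of the 5, Cebpe and Gfi1, where 6.56% of all genes were higher and 8.77% lower. In 4 of the 5 tested members both knockout arrays lay above both controls (22.0% of all genes), and in 1 both lay below (28.1%). Over both directions, 50.1% of all genes separated the genotypes in this way. A log2 difference of at least 1 was seen in 2 members upward, Cebpe and Gfi1 (1.38% of all genes), and in none downward (2.56%). Labels do not say that the pools were processed separately after sorting. The p-values rest on the spread between the 2 arrays of each genotype, drawn towards that of all tested genes. What this spread covers beyond these 4 samples is not known.

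**Figure D1:**
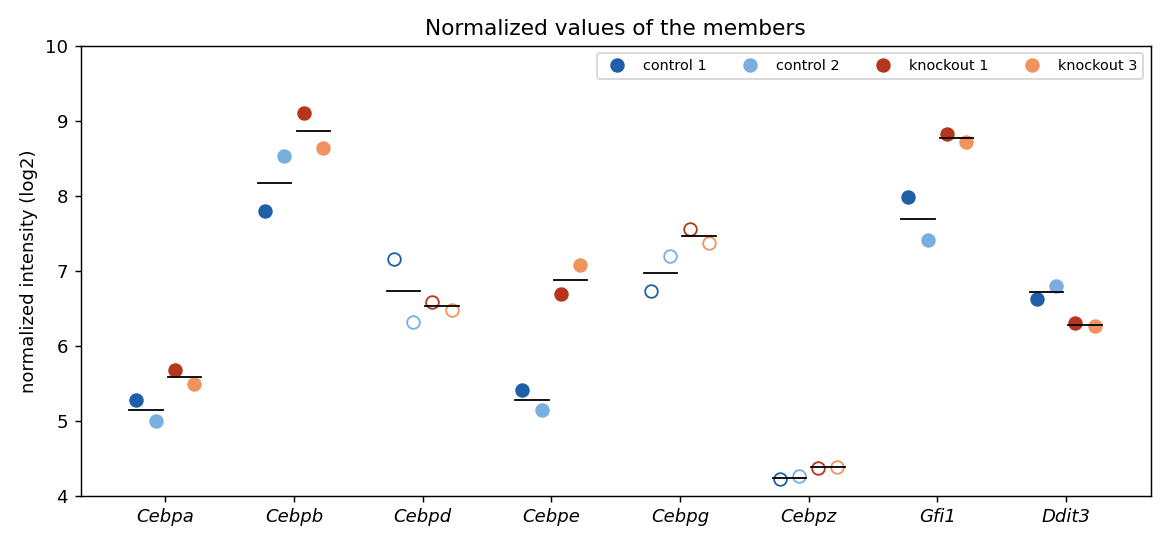
Log2 normalized intensity of each member on the 4 arrays, with blue points for controls, red and orange points for knockouts and a black line at the mean of each genotype. Open points mark Cebpd, Cebpg and Cebpz, which were left out of the test. Cebpe and Gfi1 show the widest gaps between the genotypes.

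Cebpe had signals of 126.6 and 104.3 in controls against 160.1 and 166.7 in knockouts, over 45 to 50 beads each. The bead standard errors of these signals were 4.61, 3.08, 5.74 and 8.69. Both knockout signals exceeded both control signals before any normalization. Every array placed Cebpe above the 95th percentile of its negative control probes, which ran from 85.3 to 112.8. After normalization its levels were 5.41 and 5.14 in controls against 6.69 and 7.07 in knockouts. The knockout mean lay 1.61 ± 0.24 (SE, n = 2 per genotype) above the control mean, and the 95% confidence interval spanned 1.02 to 2.19 (limma, adjusted p = 0.172). By unadjusted p Cebpe ranked 40 and by size 86 among the 11538 genes. The difference was 0.77 without background correction and 1.06 with an offset of 50.

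Gfi1 had signals of 460.8 and 247.6 in controls against 464.2 and 345.2 in knockouts. These signals overlapped. The bead standard errors, 32.7 and 12.2 in controls against 21.0 and 23.3 in knockouts, were far smaller than the gap between the control arrays. Normalized levels were 7.99 and 7.41 in controls against 8.82 and 8.71 in knockouts. The 2 knockout values were close to each other and above both controls, and the difference was 1.07 ± 0.26 (95% confidence interval 0.43 to 1.71, adjusted p = 0.237). Under median scaling, in which all genes were lower in the knockout by a median of 0.70, Gfi1 stood at 0.16 and Cebpe at 0.72. Gfi1b, the close relative of Gfi1 that serves megakaryocytic and erythroid cells, lay the other way, at 7.76 and 8.14 in controls against 7.03 and 6.57 in knockouts (difference −1.15 ± 0.26, adjusted p = 0.237).

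**Figure D2:**
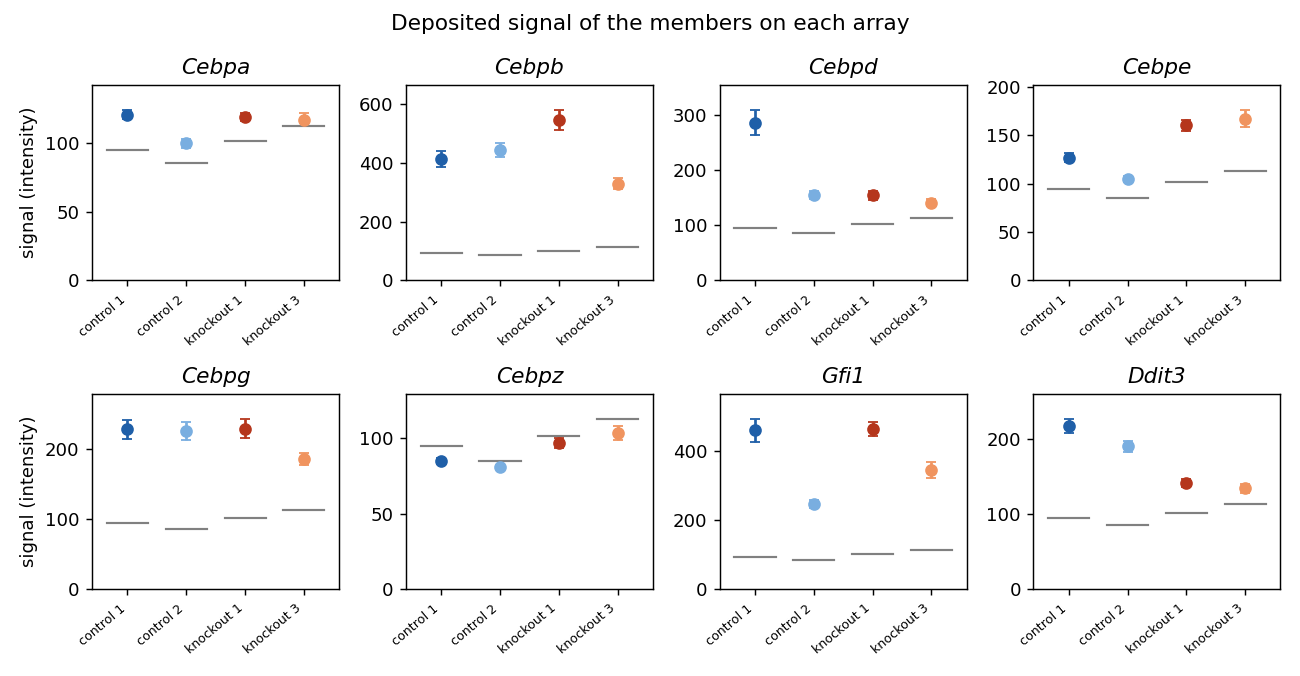
Deposited signal (linear intensity, before background correction) of each member on each array, with bars for the bead standard error and a grey line at the 95th percentile of the negative control probes of that array. Cebpe exceeds its control signals on both knockout arrays, Ddit3 lies below them, and Cebpz lies at the level of the negative probes.

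Cebpa lay close to background on every array, with signals of 120.8 and 99.9 in controls against 119.2 and 117.3 in knockouts. On knockout replicate 3 it exceeded 98.1% of the negative control probes, and all of them on the other arrays. Its normalized levels were 5.28 and 5.00 against 5.67 and 5.49. The gap was 0.44 ± 0.22 (95% confidence interval −0.09 to 0.98, adjusted p = 0.388), an interval that includes no difference. It was 0.16 without background correction and turned to −0.28 under median scaling.

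Cebpb lay well above background, with signals of 413.2 and 443.3 in controls against 544.4 and 329.3 in knockouts. Knockout replicate 1 was thus the brightest and knockout replicate 3 the dimmest before normalization. Normalized levels were 7.80 and 8.53 in controls against 9.10 and 8.64 in knockouts, so that control replicate 2 and knockout replicate 3 nearly touched. The difference of 0.70 ± 0.32 (95% confidence interval −0.09 to 1.49, adjusted p = 0.363) dropped to 0.34 when control replicate 1 was left out, stood at 1.07 when control replicate 2 was left out, and was −0.18 under median scaling.

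Ddit3 was the member whose knockout levels lay below the controls. Its signals were 216.2 and 189.6 in controls against 141.1 and 133.8 in knockouts, against bead standard errors of 5.46 to 9.49. Normalized levels were 6.63 and 6.80 against 6.30 and 6.26. Both genotypes were tight around their means, and the difference was −0.44 ± 0.20 (95% confidence interval −0.93 to 0.06, adjusted p = 0.364). It was −0.24 without background correction. Under median scaling it was −1.37 (adjusted p = 0.0487), the one setting in which a member passed the test (adjusted p from 0.0487 to 0.66 over 13 alternatives), and there all genes had a median of −0.70.

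**Figure D3:**
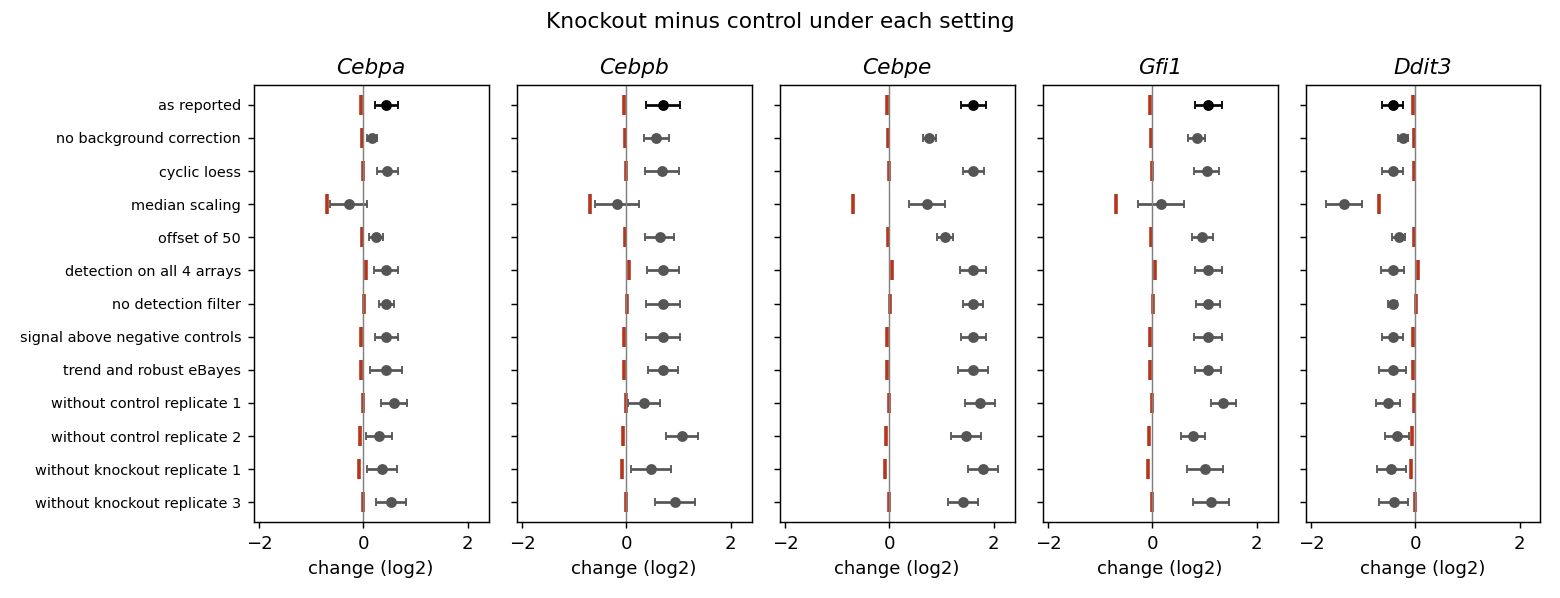
Knockout minus control (log2, with standard error bars) of the 5 tested members as reported and under 12 alternatives, with a red tick at the median of all genes tested in that setting. Cebpe and Gfi1 lie above 0 in every setting shown and Ddit3 below, while Cebpa and Cebpb cross 0 under median scaling. Changes of filter or fit, and leaving out an array, could not turn a direction.

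The remaining members did not meet the detection rule. Cebpd encodes a factor induced in inflammation. It had signals of 286.4 and 154.7 in controls against 154.7 and 141.3 in knockouts, above every negative control probe, yet its deposited detection p-value lay between 0.336 and 0.486. The sources used here do not tell how several probes of 1 gene were merged, and both readings are given as deposited. Control replicate 1 stood apart, and the normalized levels of 7.16, 6.32, 6.59 and 6.48 overlapped between the genotypes. Cebpg encodes a short member without an activation domain that pairs with other C/EBP and ATF proteins. Its signals were 227.5 and 224.9 in controls against 228.4 and 184.8 in knockouts, and it was detected on control replicate 1 alone. Normalized levels were 6.73 and 7.20 against 7.56 and 7.37, without overlap (22.0% of the genes tested lay higher in this way), while the signals overlapped. With a filter on signal above the negative control probes in place of the deposited p-value, chosen after seeing the data, 12100 genes were tested. Cebpg then differed by 0.50 ± 0.25 (limma, adjusted p = 0.387) and Cebpd by −0.20 ± 0.32 (adjusted p = 0.776).

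Cebpz shares the CCAAT name and is no leucine zipper protein: it belongs to the Noc family of ribosome assembly factors. Its signals of 85.1, 81.0, 97.0 and 103.6 exceeded 27.2%, 54.5%, 73.6% and 69.9% of the negative control probes on the respective arrays, so no level could be told from background. Its normalized levels of 4.22, 4.26, 4.37 and 4.38 did not overlap between the genotypes. Of the genes tested, which leave Cebpz out, 22.0% lay higher in this way. Genes of Noc proteins and nucleolar assembly factors were measured better. Of 10 listed genes 9 were tested, all 9 were higher in the knockout, 5 of them without overlap (22.0% of all genes), and 0 passed the adjusted threshold. The median was 0.27 against −0.04 over all genes tested. Without control replicate 2 the list stood at 5 higher and 4 lower (median 0.12), and under median scaling all 9 were lower, with a median close to that of all genes (−0.65 against −0.70). Noc4l (0.83 ± 0.23, adjusted p = 0.249), Mybbp1a, a nucleolar protein first found through its binding to Myb (0.73 ± 0.25, adjusted p = 0.290), and Bop1 (0.84 ± 0.32, adjusted p = 0.311) differed most.

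Of 18 listed granulocytic genes known to need or bind C/EBP alpha or epsilon, 15 were tested. In the fit 13 were higher and 2 lower, 5 higher (22.0% of all genes) and 0 lower (28.1%) without overlap, and 0 passed the adjusted threshold, with a median of 0.84 against −0.04 over all genes. The arrays differed: against the mean of the controls, knockout replicate 1 alone gave a median of 1.78 and knockout replicate 3 alone −0.22, and without knockout replicate 1 the split was 6 higher and 9 lower. The 5 without overlap were Ms4a3, Ctsg, Prtn3, Mpo and Il6ra, while Csf3r, the receptor for granulocyte colony-stimulating factor, overlapped at 6.21 and 6.05 in controls against 6.10 and 5.83 in knockouts. Ms4a3, a marker of granulocyte-monocyte progenitors, was at 7.10 and 5.99 in controls against 8.99 and 9.62 in knockouts (2.76 ± 0.42, adjusted p = 0.178). Ctsg, the gene of the primary granule protease cathepsin G, was at 11.48 and 10.78 against 12.30 and 12.74 (1.39 ± 0.31, adjusted p = 0.237). Prtn3, the gene of proteinase 3, was at 11.26 and 11.83 against 12.11 and 12.69 (0.85 ± 0.31, adjusted p = 0.296), and 0.56 without knockout replicate 3.

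Ltf (lactoferrin), Camp (cathelicidin) and Ngp, secondary granule genes of the class for which C/EBP epsilon is best known, overlapped between the genotypes. They are named after their values were seen. Ltf was at 7.01 and 8.33 in the controls, 11.21 on knockout replicate 1 and 6.34 on knockout replicate 3. Camp was at 6.41, 8.04, 10.18 and 5.39 and Ngp at 5.89, 8.22, 10.05 and 5.10 in the same order of arrays. In these 3 genes knockout replicate 1 was the highest of the 4 arrays and knockout replicate 3 the lowest. Camp was detected on both arrays of each genotype, and Ltf and Ngp on both control arrays and 1 knockout array. Lcn2 (lipocalin 2), another secondary granule gene, was at 6.89, 8.77, 10.78 and 8.09, with knockout replicate 3 between the controls. For Cebpe, against the mean of the controls, knockout replicate 1 stood at 1.41 and knockout replicate 3 at 1.80.

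Mature neutrophil markers, on a list of 12, overlapped between the genotypes in their summed level. Of 11 with a row, 10 were above background on at least 1 array and Mmp8 on none. Their summed normalized intensity was 1599 and 4600 in the controls, 16390 on knockout replicate 1 and 1108 on knockout replicate 3. Without knockout replicate 1, the array with the highest sum, the Cebpe difference was 1.80 ± 0.29 and that of Gfi1 1.02 ± 0.34. Without knockout replicate 3 they were 1.41 ± 0.29 and 1.12 ± 0.34. Each of these fits rested on a single knockout array. The part of the neutrophil markers in the values of Cebpe and Gfi1 was not tested.

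**Figure D4:**
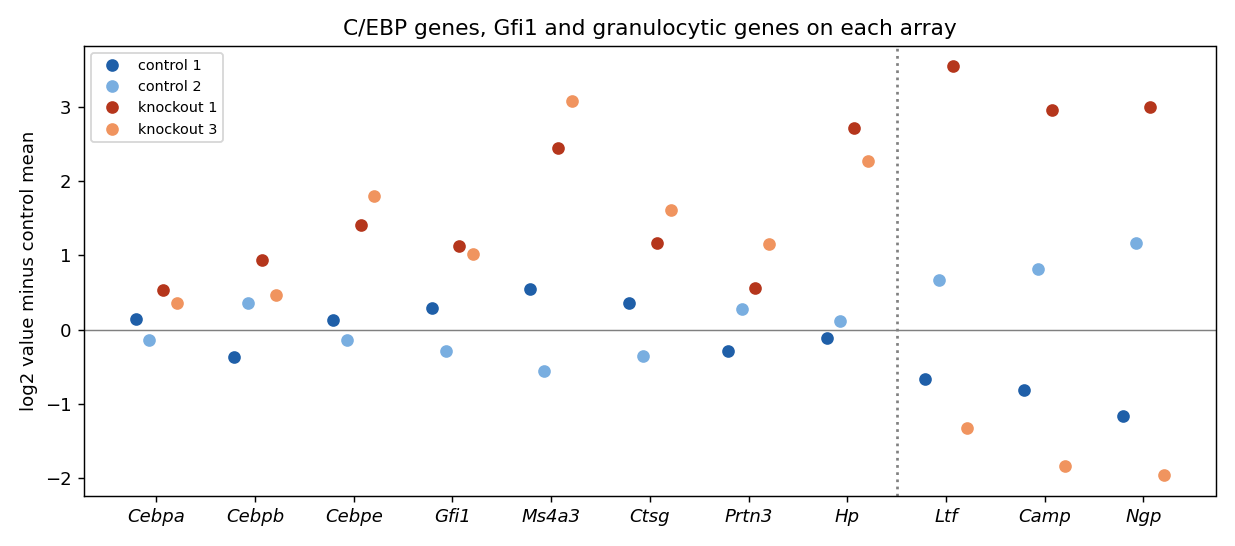
Log2 value minus the mean of the controls for 4 members and 7 granulocytic or acute-phase genes on each array, with blue points for controls, red for knockout replicate 1 and orange for knockout replicate 3. Left of the dotted line both knockout arrays lie above both controls, which was the rule by which Ms4a3, Ctsg, Prtn3 and Hp were picked. Right of it are Ltf, Camp and Ngp, named after their values were seen. In these knockout replicate 1 is the highest array and knockout replicate 3 the lowest. Other listed genes that overlapped, such as Csf3r and Lcn2, are not shown.

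Markers of other cell types were summed in the same way, and no gene on these lists passed an adjusted p of 0.05. The summed intensity of monocyte and macrophage markers was 552.1 and 456.2 in controls against 1158 and 979.7 in knockouts, with 10 of 11 measured markers above background on at least 1 array. Of the 7 tested, 5 were higher and 0 lower without overlap (22.0% and 28.1% of all genes). The brightest of them, F13a1, was at 8.03 and 7.42 against 9.51 and 9.29, while Csf1r overlapped. Megakaryocyte and platelet markers, all 8 detected, were at 2467 and 2797 against 863 and 789.8. Mast cell and basophil markers, 5 of 8 detected and Ms4a2, Mcpt4 and Tpsb2 on no array, were at 654.6 and 658.3 against 388.1 and 380.1. The part of these differences in the values of Cebpe, Gfi1, Cebpa and Cebpb was not tested. In a bulk sample, more cells of a kind and more RNA per cell cannot be told apart. Erythroid markers (4728 and 4064 against 3178 and 8363) overlapped in their sum. Of the 8 tested, 3 were higher and 3 lower without overlap (22.0% and 28.1% of all genes). Car1 was lower by a log2 difference of −2.36 and Tfrc higher by 0.77. B cell markers were at 1090 and 790.1 against 769.1 and 429, and T and NK cell markers at 1703 and 1405 against 2637 and 3827. Among the latter Nkg7 was at 10.42 and 10.10 against 11.19 and 11.81, while Lck was lower by a log2 difference of −0.69. Over the 7 tested the median was 0.12 against −0.04 over all genes. Without overlap 2 were higher and 2 lower (22.0% and 28.1% of all genes).

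Acute-phase genes that C/EBP beta and delta are known to activate in liver and myeloid cells included 3 that were higher on both knockout arrays. Of 10 listed genes 6 were tested, 5 higher and 1 lower, 3 and 0 without overlap (22.0% and 28.1% of all genes). The adjusted threshold was passed by 0, and the median was 0.88 against −0.04 over all genes. Against the mean of the controls, knockout replicate 1 alone gave 2.50 and knockout replicate 3 alone 0.19, and without knockout replicate 1 the split was 3 higher and 3 lower. S100a8 and S100a9 are also neutrophil markers. Hp, the gene of haptoglobin, was at 6.32 and 6.55 in controls against 9.16 and 8.71 in knockouts (2.50 ± 0.24, adjusted p = 0.114). Lrg1, above background on 1 control array, was at 4.36 and 4.79 against 7.60 and 6.17 (2.31 ± 0.48, adjusted p = 0.227). Clec4e, the receptor Mincle, was at 5.93 and 5.05 against 7.003 and 6.57 (1.30 ± 0.35, adjusted p = 0.248). These 3 were named because they lay above the controls on both knockout arrays, and the other tested genes of the list overlapped. Without background correction the differences were 1.80 for Hp, 1.02 for Lrg1 and 0.62 for Clec4e. Saa3, Orm1, Il6 and Ptgs2 did not meet the detection rule.

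Genes that Gfi1 is known to repress, in mouse or human blood cells, were on balance near the median of all genes. Of 15 listed genes 12 were tested, 4 higher and 8 lower, with 2 higher and 4 lower without overlap (22.0% and 28.1% of all genes) and 0 past the adjusted threshold. The median was −0.11 against −0.04 over all genes, and −0.71 over the 7 genes detected on all arrays. Id1, an inhibitor of helix-loop-helix factors, was higher, at 4.78 and 4.53 in controls against 6.43 and 6.46 in knockouts (1.79 ± 0.21, adjusted p = 0.114). Its difference was 0.70 without background correction and 1.03 with an offset of 50. Cdkn1a, the gene of the cell cycle inhibitor p21, was at 6.16 and 5.44 against 6.87 and 6.25 (0.76 ± 0.34, adjusted p = 0.356). Lower were Egr1, an immediate early factor (−2.73 ± 0.89, adjusted p = 0.276), Meis1, a stem cell homeobox factor (−1.32 ± 0.34, adjusted p = 0.245), and Gfi1b. Egr1 varied widely within the controls, at 8.62 and 11.49, and was at 7.59 and 7.05 in the knockouts. Leaving out control replicate 2 gave −1.30 for Egr1 and −0.84 for Meis1, and leaving out control replicate 1 gave −4.17 for Egr1.

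Upstream factors and partners of C/EBP proteins were divided. Of 15 listed genes 11 were tested, 3 higher and 8 lower, 2 and 5 without overlap (22.0% and 28.1% of all genes), with a median of −0.27 against −0.04 over all genes and 0 past the adjusted threshold. Spi1, the gene of PU.1, was at 6.14 and 6.52 in controls against 6.66 and 6.74 in knockouts (0.37 ± 0.22, adjusted p = 0.462). Myb, the relative of B-Myb that stem cells depend on, differed by 0.24 ± 0.21 (adjusted p = 0.608). The leucine zipper partners lay lower: Fos at 8.19 and 10.63 against 7.15 and 5.49 (−3.09 ± 0.89, adjusted p = 0.258), and Jun at 7.33 and 7.97 against 6.60 and 5.10 (−1.80 ± 0.52, adjusted p = 0.258). Gata2, a stem and mast cell factor, was at 10.31 and 10.57 against 9.62 and 8.90 (−1.18 ± 0.30, adjusted p = 0.245). Fos, Jun and Egr1 are immediate early genes, and each was higher on control replicate 2 than on control replicate 1. Fos was at −1.87 without control replicate 2, and Jun at −1.05 without knockout replicate 3. Jun was detected on both control arrays and on 1 knockout array.

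Integrated stress response genes gave the setting for Ddit3, a target of the factor Atf4 in that pathway. Of 14 listed genes 8 were tested, 3 higher and 5 lower, 2 and 3 without overlap (22.0% and 28.1% of all genes), with 0 past the adjusted threshold and a median of −0.11 against −0.04 over all genes. Atf4 itself overlapped between the genotypes. Below the controls were Ppp1r15a, whose product reverses the block on translation (8.08 and 9.07 against 6.41 and 6.44, difference −2.15 ± 0.35, adjusted p = 0.181), Ddit4, an inhibitor of mTOR signalling (−0.89 ± 0.22, adjusted p = 0.237), and Trib3 (−0.84 ± 0.20, adjusted p = 0.237). Above them were Atf5 (0.46 ± 0.22, adjusted p = 0.383) and Chac1, a glutathione-degrading enzyme (0.49 ± 0.25, adjusted p = 0.400). Chac1 was above background on 1 array of each genotype, and Trib3 on both control arrays and 1 knockout array. Without background correction the differences were 0.15 for Chac1 and −0.26 for Trib3.

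**Figure D5:**
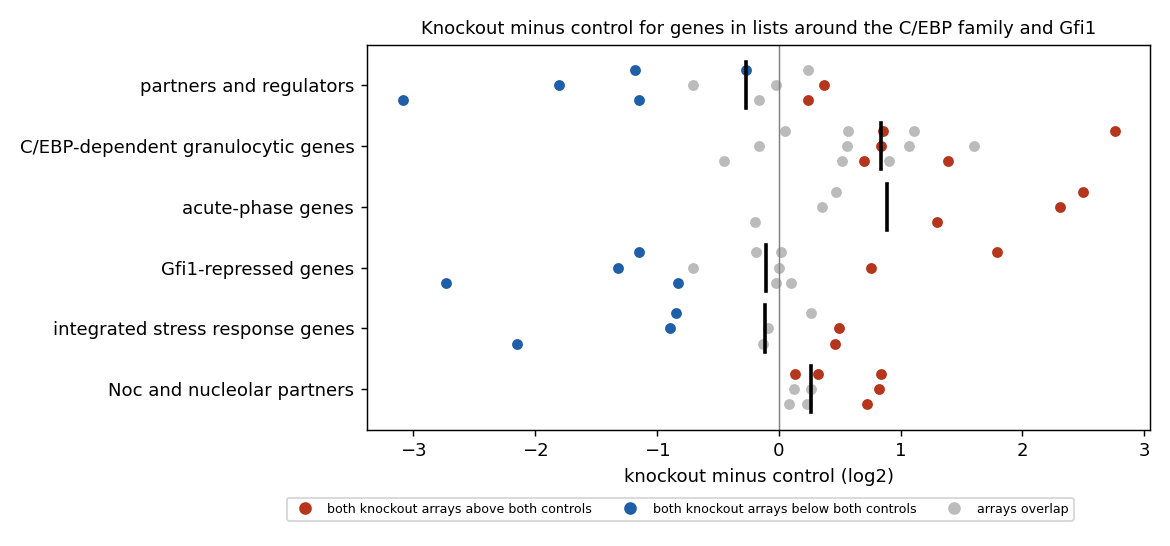
Knockout minus control (log2) of every tested gene in 6 lists, one point per gene, with a black bar at the median of the list. Red and blue points mark genes in which both knockout arrays lie above or below both controls. Granulocytic and acute-phase genes extend to the right, and partner, Gfi1-repressed and stress response genes to both sides.

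Genes with the array pattern most like that of a member were sought by the root mean square distance of log2 values over the 4 arrays, each centred on its own mean. For Cebpe the nearest were PRSSL1, an array name that fits more than one current gene (distance 0.043), Gm5069 (0.0793) and Dnmt3l, a DNA methyltransferase cofactor (0.0862), and 5 genes in all lay within 0.1. PRSSL1 was at 5.94 and 5.73 in controls against 7.19 and 7.55 in knockouts. Dnmt3l was not above background on either control array, and its difference was at least 1.48 on the log2 scale. For Gfi1 the nearest were Tnfaip1 (0.0519), Cycs, the gene of cytochrome c (0.0535), and the unmatched name SCL0002069.1_48 (0.0575), with 13 genes within 0.1. Cebpa had 312 genes within 0.1, led by Siah1b, LOC100040592 and Smu1. With 4 arrays, such likeness is a description of these samples.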

How the data were processed

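The members and gene lists were chosen with earlier results of these data known. LSK RNA was amplified to biotinylated cRNA for Illumina arrays, per the labels' protocols. Neither scanning software nor array type is stated in those sources. In their table the authors deposited intensity per gene name without background subtraction or normalization, with bead standard errors as a signal in intensity units, bead numbers and detection p-values. The deposited value table holds linear intensity: within a tolerance of 1%, 7 members matched 1 of its 30840 rows each once quantile-normalized, and Cebpz matched 7. It was used for this check only.

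Of 30854 gene rows, 1 further row was unreadable and left out. Names were updated through RefSeq (GRCm38.p6), which left 28711 genes or names. The neqc function (limma 3.58.1, R 4.3.3) corrected background from 936 negative probes, added 16, quantile-normalized and took log2. Genes detected (p-value below 0.05) on 2 or more of 4 arrays were tested with lmFit and eBayes, two-sided, without covariates, and adjusted by Benjamini-Hochberg over 11538 genes. Where rows shared a gene, the brightest was used. Lists were described by counts and medians only. The number of arrays limits the precision. Named genes were the members, Mybl2, Kit and Ly6a, up to 3 genes per list and direction with the largest non-overlapping difference, and 3 genes nearest in pattern to Cebpa, Cebpe and Gfi1. Ltf, Camp, Ngp, Lcn2, Csf3r, Mpo, Il6ra, Nkg7, Lck, Car1, Tfrc, F13a1 and Csf1r were added after their values were seen.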

Additional observations from a re-analysis of the deposited data

How the results depend on the processing

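Of the 13 alternatives, the changes of filter, the trend and robust fit and the array weights left each member's difference as it was. The direction of a member could not turn in those. Nor could it turn when an array was left out, since every tested member separated the genotypes. Only the changes of background correction, normalization and offset could turn it. The direction of Cebpe, Gfi1 and Ddit3 held in all 13 alternatives, and that of Cebpa and Cebpb in 12 of 13. Over these, Cebpe ran from 0.72 to 1.80 (adjusted p from 0.0648 to 0.604) and Gfi1 from 0.16 to 1.36 (adjusted p from 0.141 to 0.782). Median scaling, where all genes tested had a median of −0.70, gave −0.28 for Cebpa, −0.18 for Cebpb and −1.37 for Ddit3 (adjusted p = 0.0487). It also turned Spi1 to −0.58, Myb to −0.63, Cdkn1a to −0.18, Atf5 to −0.46, Bop1 to −0.14, Noc4l to −0.048, Mybbp1a to −0.19, Camp to −0.11 and Ngp to −0.065, and put list medians at −1.06 for partners, −0.84 for Gfi1-repressed, −0.93 for stress response and −0.65 for Noc genes.

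The count of genes past an adjusted p of 0.05, 0 as reported with 1769 at an unadjusted p under 0.05, was 3 with cyclic loess, 17 with detection on all 4 arrays, 15 when eBayes used a trend and robust estimates, and 933 under median scaling, where the unadjusted split was 20 higher and 4362 lower against 757 and 1012. It stayed 0 with each array left out. Leaving out control replicate 2 gave 933 genes at that unadjusted limit, and leaving out knockout replicate 3 gave 1040. The median of Gfi1-repressed genes was −0.71 with detection on all 4 arrays, and that of stress response genes −0.017 with no detection filter, where other genes enter.

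With each array left out in turn, Cebpa ran from 0.30 to 0.58, Cebpb from 0.34 to 1.07, Cebpe from 1.41 to 1.80, Gfi1 from 0.78 to 1.36 and Ddit3 from −0.52 to −0.35. Medians ran from −0.22 to 1.78 for C/EBP-dependent granulocytic genes, 0.19 to 2.50 for acute-phase genes, −0.48 to 0.016 for Gfi1-repressed genes, −0.18 to −0.06 for stress response genes, 0.12 to 0.54 for Noc genes and −0.47 to −0.24 for partners. Among genes named from the lists, the value moved by over 1.5 times for Spi1 (0.18 to 0.55), Myb (0.12 to 0.36), Clec4e (down to 0.86), Cdkn1a (0.40), Chac1 (0.25), Atf5 (0.27), Bop1 (0.52) and Mybbp1a (0.45), and for Fos, Jun, Egr1, Meis1 and Prtn3 as given above. Mybl2 ran from −0.52 to 0.15, Ly6a from −0.67 to 0.28, Ltf from −1.33 to 3.54, Camp from −1.83 to 2.96 and Ngp from −1.96 to 2.99. The cause was not tested. Array weights changed no call. No paired analysis was possible because the genotypes share only replicate number 1. Dim members are limited by signal over background: Cebpa lay within the range of the negative probes on knockout replicate 3, and Cebpz on all arrays.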
